A study of Caenorhabditis elegans with 9 samples.

Results

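The data described here are the 3 arrays of vhl-1 mutant Caenorhabditis elegans in a set of 9 spotted 2-colour arrays, taken by their sample titles. The set holds 3 arrays of the vhl-1 mutant, 3 of the hif-1 mutant and 3 of wild type worms, and each array compared 2 RNAs of 1 genotype, called H and N in the labels. After the title of the series, H was taken to mean hypoxia and N normoxia. The total RNA called H carried the dye Cy3 and the RNA called N carried Cy5 on every array, so no array had the dyes exchanged. The alleles, the stage of the worms, the oxygen level and its duration were not given by the labels, nor was it said whether the replicates were separate cultures, so p-values measure only the spread between these samples.

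HIF-1 is the worm's hypoxia-inducible transcription factor. When oxygen is present the prolyl hydroxylase EGL-9 modifies HIF-1, and VHL-1, the worm counterpart of the von Hippel-Lindau tumour suppressor, then binds it as part of a ubiquitin ligase that sends it to the proteasome. Low oxygen blocks this step in wild type worms, while worms without VHL-1 keep HIF-1 also in normal oxygen and worms without HIF-1 lack the factor altogether. Each array gives a ratio of H to N within 1 genotype. A gene that is equally high in both RNAs and a gene that is equally low in both give the same ratio, so the ratios hold no levels and do not show what the mutation alone changed.

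Every value below is a log2 ratio of H over N after the array's median was set to 0, so that 1 stands for a doubling in H. The base of the logarithm and the direction of the deposited ratio are unstated; base 2 and N over H were assumed, and the sign was then turned. With the other direction every sign below would turn, and no p-value would change. The arrays held 21888 spots, of which 21426, 21358 and 21372 had a value on vhl-1 mutant arrays 1, 2 and 3. After averaging of spots, 7179 named genes and 13679 unnamed spots were tested. Most genes that carry classical names, hif-1, vhl-1 and egl-9 among them, are not among the named spots, so the genotypes could not be checked in the values. The interquartile range of the log2 ratios was 0.698 on array 1, 0.888 on array 2 and 0.959 on array 3. Across features, arrays 2 and 3 were correlated with r = 0.707, and array 1 with them with r = 0.538 and r = 0.521; features are not independent replicates.

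In the vhl-1 mutant, 442 of the 7179 named genes passed the test against 0 (limma, adjusted p under 0.05), which is 6.16% of them. Of these, 183 were higher in H (2.55%) and 259 were lower in H (3.61%). Over all 20858 features 1915 passed (9.18%), 841 higher (4.03%) and 1074 lower (5.15%), and 10.8% of the unnamed spots did. The 2 genes that rose most encode heat shock proteins of the HSP70 family, and the genes that fell most include one for an ER protein of the ERp44 family and the mitochondrial gene for cytochrome b. Rises past the test ran from 0.71 to 4.06, with a median of 1.07, and falls from -3.19 to -0.72, with a median of -1.18. Among them 114 rose (1.59%) and 188 fell (2.62%) by 1 log2 unit or more. Only 3 genes rose by 2 log2 units or more (0.0418%), while 29 fell by that much (0.404%).

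Each of the 442 genes had the same sign on every vhl-1 mutant array that gave a value, and 433 of them had a value on all 3: all 183 that rose and 250 of those that fell. Among all named genes with 3 values, 3615 of 7012 (51.6%) had 1 sign throughout. The test on the mean of these same arrays favours genes with 1 sign, so the shared sign is no separate support for the calls. The size differed by array for the genes that rose, with medians of 0.78, 1.21 and 1.23 on arrays 1, 2 and 3, and less so for the genes that fell, with medians of -1.16, -1.24 and -1.09. The count depended on each of the 3 arrays. Without array 1, 233 named genes passed (124 higher, 109 lower); without array 2, 58 passed (12 higher, 46 lower); and without array 3, 96 passed (20 higher, 76 lower).

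**Figure D1:**
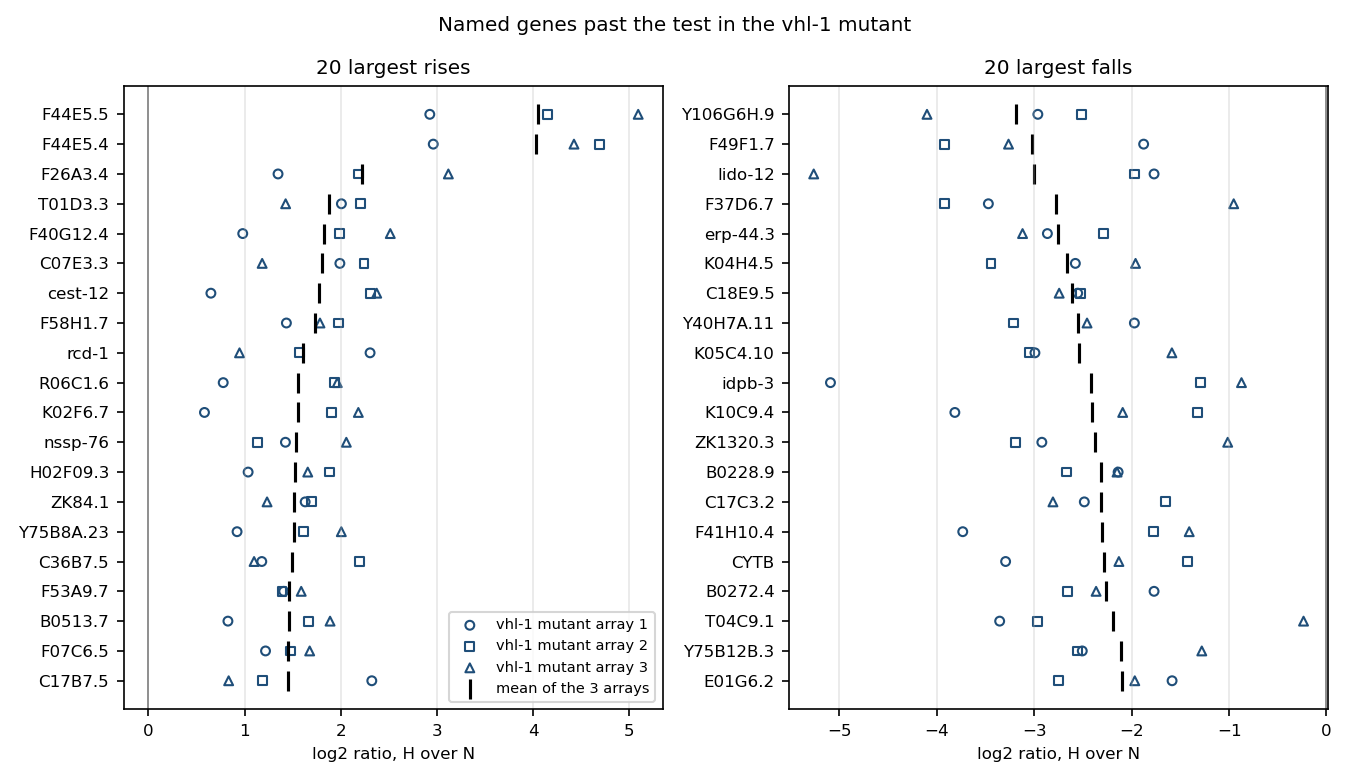
The 20 highest and 20 lowest named genes past the test in the vhl-1 mutant, with a value on all 3 arrays and 1 sign; points are single arrays and the horizontal axis is the log2 ratio of H over N. F44E5.5 and F44E5.4 stand apart at means of 4.06 and 4.03, while the falls reach -3.19; lido-12 and idpb-3 have 1 array far below the other 2.

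Molecular chaperones of the HSP70 family bind unfolded proteins, and F44E5.4 and F44E5.5 are family members that heat and other protein-damaging stress induce. F44E5.5 (chromosome II, 11759662 to 11761861, WBcel235) gave 2.93, 4.15 and 5.09 on the vhl-1 mutant arrays, a mean of 4.06 ± 1.09 (SD, n = 3; SE 0.53; limma, adjusted p = 0.000788), or 16.6-fold. F44E5.4 (chromosome II, 11757107 to 11759311) gave 2.96, 4.69 and 4.42, a mean of 4.03 ± 0.93 (SD, n = 3; adjusted p = 0.000788). The 2 genes lie 350 bases apart, and near-identical copies may share signal on a spotted array, so they are not certain to be 2 separate measurements. Both kept the call in each of the 9 fits that left out 1 array.

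Both HSP70 genes were above 0 on every array of the other genotypes too. F44E5.5 gave 1.21, 2.41 and 4.14 in the hif-1 mutant, with a mean of 2.59 (limma, adjusted p = 0.0301), and 1.04, 1.81 and 3.26 in wild type, with a mean of 2.04 (adjusted p = 0.0887). The vhl-1 mutant arrays overlapped those of both other genotypes. The vhl-1 mutant response was 2.02 above that of wild type (95% interval 0.42 to 3.62; limma, adjusted p = 0.382) and 1.47 above that of the hif-1 mutant (-0.13 to 3.07; adjusted p = 0.790), so neither difference passed the test.

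The small heat shock proteins hold unfolding proteins in solution, and the 2 named members on the array did not pass the test in the vhl-1 mutant. For hsp-16.21 the vhl-1 mutant arrays gave 0.41, 1.68 and 0.63, a mean of 0.91 ± 0.68 (SD, n = 3; limma, adjusted p = 0.194). The hif-1 mutant arrays gave 2.57, 2.33 and 3.56 for it (mean 2.82, adjusted p = 0.00915), and the wild type arrays 0.95, 3.67 and 1.68 (mean 2.10, adjusted p = 0.0295). All 3 vhl-1 mutant values of hsp-16.21 lay below all 3 of the hif-1 mutant, and the difference was -1.91 (95% interval -3.23 to -0.60; adjusted p = 0.768), which did not pass. For hsp-16.20 the vhl-1 mutant mean was 0.13 (0.64, -0.38 and 0.13), against 0.78 in the hif-1 mutant, where 2 arrays gave a value, and 1.65 in wild type. Set against wild type, the vhl-1 mutant response of hsp-16.20 differed by -1.52 (-2.81 to -0.22; adjusted p = 0.418).

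F22B5.4 is known as a gene that hypoxia induces in wild type worms through HIF-1, and it was the only member of the HIF pathway list with a named spot. The vhl-1 mutant arrays gave 0.09, 0.08 and 0.74 for F22B5.4, a mean of 0.30 ± 0.38 (SD, n = 3; limma, adjusted p = 0.623). The hif-1 mutant arrays gave 0.35, -0.33 and 0.60, with a mean of 0.21, and the wild type arrays 0.94, 2.51 and 3.33, with a mean of 2.26 (adjusted p = 0.00813). All vhl-1 mutant values lay below all wild type values and overlapped those of the hif-1 mutant. The difference from wild type was -1.96 (95% interval -3.07 to -0.84; adjusted p = 0.280) and that from the hif-1 mutant 0.09 (-1.02 to 1.21; adjusted p = 0.985). Neither passed the test across all features, and the last interval leaves room for a difference of 1 log2 unit either way.

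F26A3.4 was above 0 on every array of the set. It gave 1.35, 2.19 and 3.12 in the vhl-1 mutant, a mean of 2.22 ± 0.89 (SD, n = 3; limma, adjusted p = 0.0176). The mean was 1.94 in the hif-1 mutant (adjusted p = 0.0664) and 2.98 in wild type. Its difference from wild type was -0.77 (95% interval -2.30 to 0.77). The call of F26A3.4 was lost without vhl-1 mutant array 2 or 3.

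**Figure D2:**
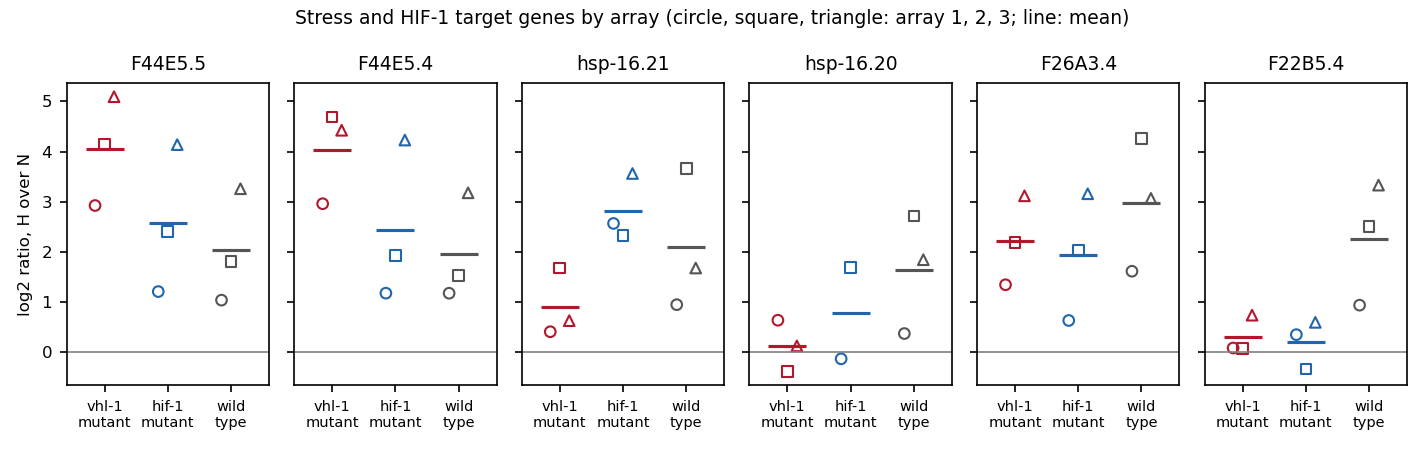
Log2 ratio of H over N on each array for the HSP70 genes F44E5.5 and F44E5.4, the small heat shock genes, F26A3.4 and F22B5.4, with the vhl-1 mutant at the left, the hif-1 mutant next and wild type at the right; lines are genotype means. F44E5.5 averages 4.06, 2.59 and 2.04 in that order, and F22B5.4 averages 0.30, 0.21 and 2.26.

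Rises other than those of F44E5.5, F44E5.4 and F26A3.4 were below 2 log2 units. T01D3.3 (chromosome V, 13704271 to 13711091) gave 2.01, 2.21 and 1.43 in the vhl-1 mutant, a mean of 1.88 ± 0.40 (SD, n = 3; limma, adjusted p = 0.00253). Its mean was 0.93 in the hif-1 mutant and 0.30 in wild type. F40G12.4 averaged 1.83, C07E3.3 1.81, cest-12 1.78 and F58H1.7 1.73. K10C3.4 gave nearly the same value on each array, with 1.17, 1.06 and 1.15 (mean 1.13, limma, adjusted p = 0.00565). K10C3.4 was also past the test in wild type, at 0.95 (adjusted p = 0.0364), and averaged 0.85 in the hif-1 mutant (adjusted p = 0.0547). F07C6.5 (chromosome IV, 12795584 to 12795705), annotated as a small nuclear RNA, averaged 1.46 ± 0.23 (SD, n = 3; adjusted p = 0.00266). Of the 20 largest rises, F44E5.5, F44E5.4, T01D3.3, F40G12.4 and F53A9.7 kept the call in each of the 9 fits that left out 1 array, and F07C6.5 kept it in the 7 such fits in which enough values remained to test it.

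The largest fall was that of Y106G6H.9 (chromosome I, 10454189 to 10455678), which gave -2.96, -2.51 and -4.10 in the vhl-1 mutant, a mean of -3.19 ± 0.82 (SD, n = 3; limma, adjusted p = 0.000299). It averaged -2.12 in the hif-1 mutant (2 arrays) and -1.86 in wild type, both past the test. The lowest adjusted p among the named genes shown belonged to erp-44.3 (chromosome IV, 8122649 to 8127324), named for ERp44, a protein that retains partner proteins in the secretory pathway through disulfide bonds. It gave -2.87, -2.29 and -3.12, a mean of -2.76 ± 0.43 (SD, n = 3; adjusted p = 0.000254), beside -2.07 in the hif-1 mutant and -1.86 in wild type (2 arrays each). The other 2 erp-44 genes did not pass in the vhl-1 mutant, with -0.45 for erp-44.1 and 0.06 for erp-44.2.

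F49F1.7 averaged -3.02, K04H4.5 -2.66 and the non-coding RNA F37D6.7 -2.78 in the vhl-1 mutant. F37D6.7 gave -3.47, -3.92 and -0.95, so that its array 3 lay apart from the other 2. C18E9.5 (chromosome II) gave -2.55, -2.53 and -2.74, a mean of -2.61 ± 0.12 (SD, n = 3; limma, adjusted p = 0.000365). R12E2.8 gave -1.52, -1.76 and -1.75, a mean of -1.68 (adjusted p = 0.000647), with -0.66 in the hif-1 mutant and 0.27 in wild type; centred within print rows of blocks, R12E2.8 averaged -1.08 (adjusted p = 0.0114). Of the 20 largest falls F49F1.7, F37D6.7, C18E9.5, K10C9.4 and Y75B12B.3 kept the call in each of the 9 fits that left out 1 array. All of these but K10C9.4, in print row 29, were printed in row 27 of their blocks, where falls were frequent. With missing values on some arrays, Y106G6H.9, K04H4.5, B0228.9 and CYTB could be tested in 7 such fits and erp-44.3 in 5, and these kept the call there. The mean of lido-12, -3.0, rested on array 3 (-1.77, -1.97 and -5.26) and was -1.87 without it (adjusted p = 0.314). That of idpb-3, -2.42, rested on array 1 (-5.09, -1.29 and -0.87) and was -1.08 without it.

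CYTB, the mitochondrial gene for cytochrome b of respiratory complex III, gave -3.29, -1.42 and -2.13 in the vhl-1 mutant, a mean of -2.28 ± 0.94 (SD, n = 3; limma, adjusted p = 0.00121). It averaged -1.86 in the hif-1 mutant (adjusted p = 0.0148) and -1.25 in wild type (2 arrays, adjusted p = 0.167). All 8 named mitochondrial genes had a mean below 0 in the vhl-1 mutant, with a median of -0.61, and CYTB alone passed the test. The next lowest adjusted p was that of ND2, a subunit of complex I, with -1.14, -0.38 and -0.72 (mean -0.75, adjusted p = 0.0878). On array 2 ATP6, ND6 and ND3 were above 0, at 0.32, 0.69 and 0.82. The 8 genes were printed in row 34 of print blocks 1 and 3, and ATP6 and ND4 were on the spots next to that of CYTB, with means of -0.68 and -0.58. When each array was centred within every print row of every block, CYTB averaged -1.41 (adjusted p = 0.0231). The 5 members of the respiratory chain list that are encoded in the nucleus all had means above 0 and did not pass, from 0.0032 for cox-7C to 0.36 for atp-1. Over the 13 members the median was -0.25 in the vhl-1 mutant, beside -0.04 over all named genes.

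The other genes were read by lists made from gene symbols. Of 44 lists 37 had a tested member and 27 had 3 or more; the symbol patterns for glycolysis, nuclear hormone receptors, histones, tRNA synthetases and HSP90 matched no tested gene, though many genes carry only a sequence name and could not be assigned. The lists covered 339 genes, of which 14 rose and 16 fell (8.85% past the test, beside 6.16% of all named genes). They were chosen with earlier results of these data known, which can raise that share. For the counts of each list below, the background is 2.55% of all named genes rising and 3.61% falling. No list was tested as a set. Markers of tissues and stages were few among the named spots, so whole-animal changes in tissue make-up were not checked. Fewer cells of a type and less RNA per cell cannot be told apart in RNA of whole worms.

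The carboxylesterase genes of the cest family, whose products cleave ester bonds and in worms help build small signalling molecules, had 32 tested members, of which 2 rose and 0 fell; their median was 0.22. The vhl-1 mutant arrays gave 0.65, 2.31 and 2.37 for cest-12 (mean 1.78, limma, adjusted p = 0.0101) and 0.73, 0.91 and 1.29 for cest-27 (mean 0.97, adjusted p = 0.0234). For cest-27 the means of the 3 genotypes were close, at 0.97 in the vhl-1 mutant, 0.95 in the hif-1 mutant and 0.95 in wild type, and it passed the test in the vhl-1 mutant alone; the difference between genotypes did not pass. The value of cest-24 was 1.72 in the vhl-1 mutant (adjusted p = 0.0509), beside 2.06 in the hif-1 mutant and 1.90 in wild type.

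Among genes of immunity and stress, irg-6, an infection response gene, gave -1.88, -0.99 and -1.92 in the vhl-1 mutant, a mean of -1.60 (limma, adjusted p = 0.00661). The 4 other members of that list had means above 0 and did not pass, with irg-8 the highest at 0.72. Of 22 pals genes, a family linked to the response to intracellular infection, pals-26 rose by 1.32 (adjusted p = 0.01), pals-38 was at -1.44 (adjusted p = 0.0465), and the median was -0.10. pals-26 averaged 0.29 in the hif-1 mutant and -0.29 in wild type; its difference from wild type was 1.61 (95% interval 0.81 to 2.42; adjusted p = 0.278), which did not pass.

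The list of neuropeptide-like genes and their receptors held 69 tested members, of which 3 rose and 2 fell, with a median of 0.04. The genes that rose were nssp-76, nlp-55 and nssp-86, and those that fell were nssp-25 and nssp-55. In the vhl-1 mutant nssp-76 gave 1.43, 1.13 and 2.06, a mean of 1.54 (limma, adjusted p = 0.0144), beside 0.52 in the hif-1 mutant and -1.02 in wild type. The neuropeptide-like gene nlp-55 gave 1.28, 1.45 and 0.98, a mean of 1.24 (adjusted p = 0.0294), beside -0.03 in the hif-1 mutant and -0.10 in wild type. The list also held 10 receptor genes of the npr and frpr families, none of which passed (limma, adjusted p under 0.05).

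In the lists of chemoreceptor families and protein kinases the called genes, 2 in each, fell, which is too few to give a direction for a list. Of 23 chemoreceptor-family genes 0 rose and 2 fell, 5 had a mean above 0, and the median was -0.32. In the vhl-1 mutant srlf-34 gave -1.23, -2.35 and -2.40, a mean of -1.99 (limma, adjusted p = 0.00711), and it fell also in wild type, at -2.23 (adjusted p = 0.00907). Of 10 protein kinases 0 rose and 2 fell, and 1 had a mean above 0. The 2 genes that fell, ttbk-2.2 at -0.98 and ttbk-3 at -1.16, are named for tau tubulin kinases. Apart from kin-35 and kin-36 the kinase list held only ttbk genes. The mean of ttbk-3 stayed at -1.16 without vhl-1 mutant array 1, which gave no value for it, and its call was lost in that fit. The sperm list, matched by symbol to spe, nspg and nsph genes, had 19 tested members. A role in sperm was not checked for them. Of the 19 members 1 rose, nspg-10 at 1.24 (limma, adjusted p = 0.0213), while 3 had a mean above 0 and the median was -0.31.

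The list of recently named families (lido, slfl, dpsm and others) had 20 tested members, of which 3 rose and 3 fell, with a median of 0.14. The genes that rose were dpsm-1, slfl-5 at 0.98 and lido-10 at 0.81, and those that fell were lido-12, slfl-4 at -1.11 and slfl-3 at -0.73. Of these, lido-12, lido-10 and slfl-4 lost the call in 4 or more of the fits that left out 1 array. The call of slfl-5 was lost without each single vhl-1 mutant array, and that of dpsm-1 without array 2 or 3.

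In each of several further lists a single gene passed. In the cell cycle list mcm-3AP, named for a human gene of mRNA export, rose by 0.84, vps-13A, a lipid transfer protein between membranes, by 1.32, and dpsm-1 in the cuticle list by 1.42. The splicing factor gene snrp-40.2 was at -1.01 (limma, adjusted p = 0.0362), slc-25A18.2 of the mitochondrial carriers at -1.04 (adjusted p = 0.0235) and cpg-18 of the eggshell list at -1.48 (adjusted p = 0.0161). No member passed among 6 translation factors, 6 genes of ribosome biogenesis, 7 of the mitochondrial ribosome and import, 5 of lipid metabolism and 8 proteases. Centred within print rows of blocks, slc-25A18.2 averaged -0.38 (adjusted p = 0.259), and centred within places of the layout mcm-3AP averaged 0.54 (adjusted p = 0.129). The calls of mcm-3AP, pals-38, snrp-40.2, ttbk-3 and slfl-4 were lost under several of the alternative settings. Those of cest-12, cest-27, nssp-76, vps-13A and nspg-10 were lost without vhl-1 mutant array 2 or 3. That of pals-26 was lost without array 1 or 2, and that of nlp-55 without each single vhl-1 mutant array.

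**Figure D3:**
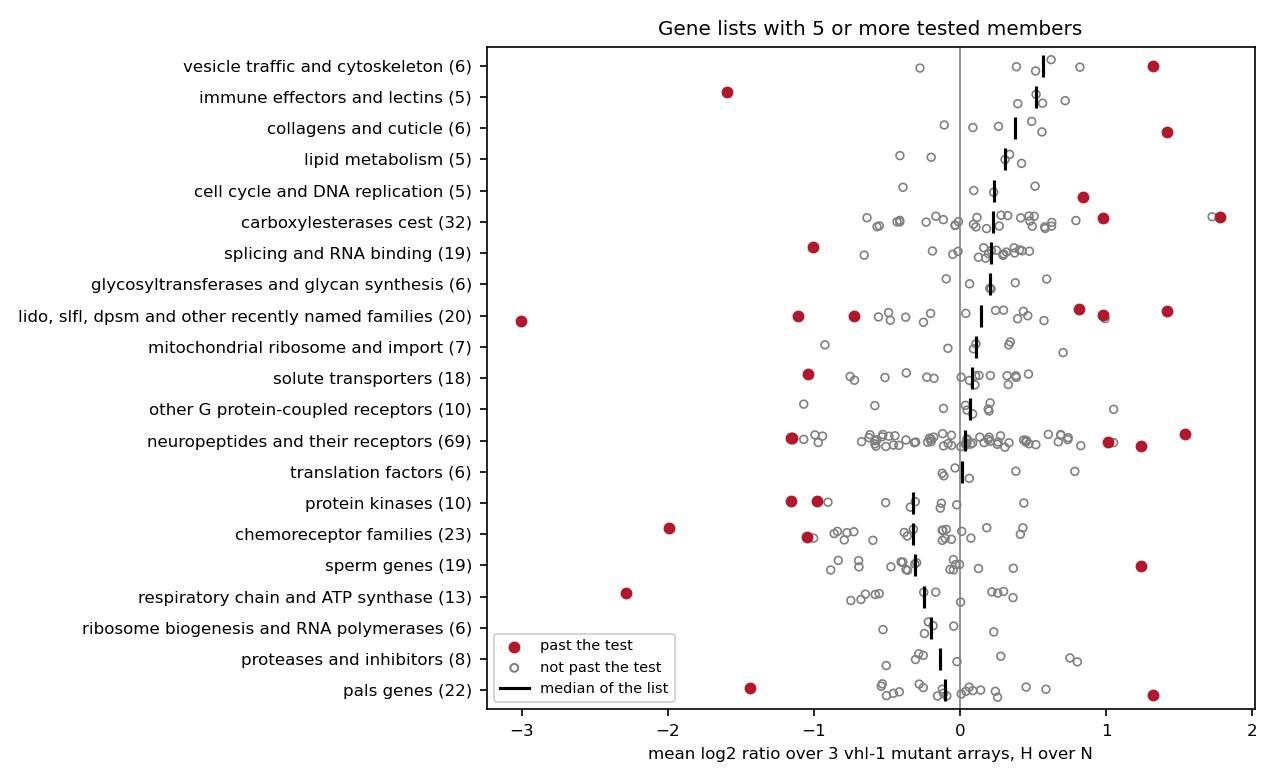
Mean log2 ratio of H over N over the vhl-1 mutant arrays for each member (points) and the median of each list with 5 or more tested members, with coloured points past the test. Medians lie between -0.32, for the protein kinases and the chemoreceptor families, and 0.57, for vesicle traffic and cytoskeleton, and at most 6 members of any list shown passed.

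The same genes were then read on the arrays of the other genotypes. The 183 genes that rose in the vhl-1 mutant had medians of 0.56 in the hif-1 mutant and 0.22 in wild type, and 168 of them (91.8%) had a mean above 0 in the hif-1 mutant and 134 (73.2%) in wild type. Over all named genes 49.8% were above 0 in the hif-1 mutant and 47.4% in wild type. The 259 genes that fell had medians of -0.62 in the hif-1 mutant and -0.39 in wild type, with 242 (93.4%) and 202 (78.0%) below 0. The arrays of all genotypes share the dye orientation and the spots. A shared response and a shared effect of the dyes or the spots therefore cannot be told apart in this shared direction.

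Of the genes that rose in the vhl-1 mutant, 14 also rose past the test in the hif-1 mutant and 6 in wild type; the last are K10C3.4, F02D10.2, F26A3.4, dpsm-1, F16G10.10 and W04E12.4. Of the genes that fell, 24 also fell in the hif-1 mutant and 14 in wild type. The background is 36 named genes that rose (0.501%) and 38 that fell (0.529%) in the hif-1 mutant, and 16 that rose (0.223%) and 18 that fell (0.251%) in wild type, or 1.03% and 0.474% called in all. The difference in these counts between genotypes is not a test of a difference in response. The genes were picked on the vhl-1 mutant arrays, which favours larger values there: 173 of the 183 rises and 235 of the 259 falls were larger in the vhl-1 mutant than in the hif-1 mutant.

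**Figure D4:**
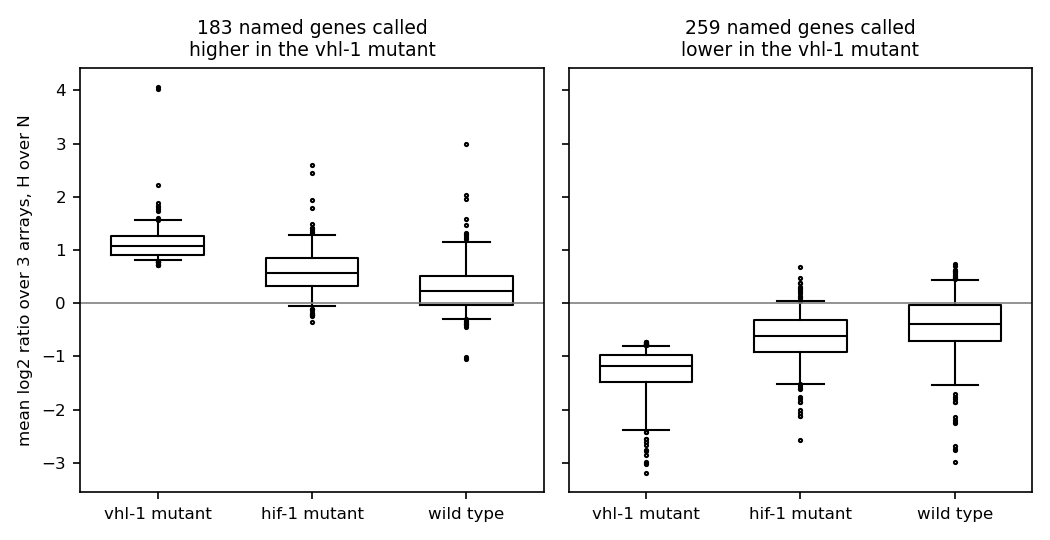
Mean log2 ratio of H over N of the named genes past the test in the vhl-1 mutant, shown in the vhl-1 mutant, the hif-1 mutant and wild type from left to right, for the 183 genes that rose and the 259 that fell; boxes span the quartiles around the median, whiskers reach the percentiles 5 and 95, and dots are genes beyond them. The medians of the genes that rose are 1.07, 0.56 and 0.22, and those of the genes that fell are -1.18, -0.62 and -0.39.

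Tested directly, the response of the vhl-1 mutant differed from that of wild type at 1 of the 20858 features (0.00479%), an unnamed spot, and at 0 named genes (limma, adjusted p under 0.05). At an unadjusted p under 0.05 there were 2108 features (10.1%) and 714 named genes (9.95%). The median SE of a difference was 0.376 log2 units; in simulated data with this spread 12.5% of differences of 1 log2 unit and 87% of differences of 2 units were recovered. The vhl-1 mutant and wild type arrays did not overlap at 1341 named genes (18.7%).

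Among the named genes with the lowest p against wild type, R12E2.8 was lower in the vhl-1 mutant by 1.94 log2 units (difference -1.94, 95% interval -2.58 to -1.30; limma, adjusted p = 0.193). Its vhl-1 mutant values lay between -1.76 and -1.52 and its wild type values between 0.10 and 0.44. The differences of nssp-76, rcd-1 and C07E3.3 were 2.55, 2.65 and 2.22 (adjusted p = 0.250 each). For rcd-1 the vhl-1 mutant mean was 1.61, beside 0.44 in the hif-1 mutant; the wild type arrays gave 0.37, -2.13 and -1.36, of which 2 lay far below 0. B0280.7 had a difference of -1.90 (adjusted p = 0.250), and its hif-1 mutant mean of -1.44 lay close to that of the vhl-1 mutant, from which it differed by 0.02 (-0.71 to 0.76). None of these differences passed. The 5 genes with the lowest p below wild type were printed late in the layout of 32 blocks. R12E2.8 and C05C9.1 were in block 31, B0280.7 in 32, R03G5.6 in 29 and ZK470.6 in 27. Of the 5 above wild type, nssp-76 was in block 24, rcd-1 in 23, F53A9.6 in 19, and C07E3.3 and fdr-1 in 14. How much of these differences the print position gave was not tested.

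Against the hif-1 mutant the vhl-1 mutant response differed at 0 of 20858 features (0.0%; limma, adjusted p under 0.05); 1336 features (6.41%) and 400 named genes (5.57%) had an unadjusted p under 0.05. Among named genes the lowest p values were those of F58G1.7 and F58G1.8. F58G1.7 averaged 1.30 in the vhl-1 mutant and -0.24 in the hif-1 mutant, a difference of 1.54 (95% interval 0.78 to 2.30; adjusted p = 0.714). F58G1.8 averaged -1.84 in the vhl-1 mutant and 0.20 in the hif-1 mutant, a difference of -2.04 (-3.06 to -1.02; adjusted p = 0.714), though its hif-1 mutant arrays were spread widely, at 0.47, 1.21 and -1.08. T04A6.2 differed by 1.21 (adjusted p = 0.742), with hif-1 mutant values close together at -0.71, -0.73 and -0.59. The vhl-1 and hif-1 mutant arrays did not overlap at 795 named genes (11.1%).

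The genes past the test in the vhl-1 mutant were spread over all chromosomes. The share that rose ran from 2.16% on chromosome V to 2.89% on the X, and the share that fell from 3.00% on V to 4.93% on the X, leaving out the 8 mitochondrial genes. Of 483 pseudogenes 11 rose (2.28%) and 19 fell (3.93%), beside 2.56% and 3.58% of 6642 protein-coding genes. Among 5008 pairs of neighbouring named genes less than 10000 bases apart, both genes passed in 23 (0.459%): both rose in 9, both fell in 9, and they moved in opposite directions in 5. With 6.16% of all named genes past the test, some such pairs arise without any link between neighbours. Whether there were more than that was not tested.

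Neighbours on the X chromosome that rose together are F53A9.6, F53A9.7 and F53A9.8, at positions 8713544 to 8718904, with 1.15, 1.46 and 1.45 in the vhl-1 mutant. F53A9.7 gave 1.41, 1.39 and 1.59 (mean 1.46, limma, adjusted p = 0.0033), and averaged 1.03 in the hif-1 mutant and 0.15 in wild type. Also on the X, C36C9.4, C36C9.5 and F07G6.5 fell together, with -1.19, -1.74 and -0.92. The pair C07E3.3 and C07E3.4 moved apart, at 1.81 and -1.15. On chromosome IV irg-6 and its neighbour C32H11.3 moved apart too, at -1.60 and 1.30. Among pairs of directly adjacent called genes, only irg-6 and C32H11.3 were printed on consecutive spots. F53A9.6 and F53A9.8, on either side of F53A9.7, also had consecutive spots, 12961 and 12962. Other pairs lay at like places of different print blocks. In row 19, F53A9.6 held position 1 of block 19 and F53A9.7 position 2 of block 17. In row 16, F44E5.4 held position 10 of block 19 and F44E5.5 position 11 of block 17. C34H4.2 and C34H4.1, on spots 1478 and 74, had the same place of different blocks. Whether the print position gave part of these shared rises was not tested.

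Repeated spots and print position bear on how well a single value holds. Of 562 genes with several spots 34 passed (6.05%), 10 higher and 24 lower. In 33 of these 34 every spot had the same sign, and the exception was T22C8.3. The genes were called on the mean of these same spots, which favours 1 sign, so the shared sign is no separate support for the calls. Over all 562 genes the median SD between spots of a gene was 0.194. Among the 34 that passed, the SD ran from 0.0012 for K12H6.7 to 1.51 for T22C8.3. Y75B8A.23, of the 20 largest rises, had spot means of 2.15 and 0.88. Across the 550 genes with 2 spots the correlation between the spots was r = 0.414. The vhl-1 mutant means of spots with consecutive numbers were correlated with r = 0.312, those at the same place of the next print block with r = 0.255, and those 1 print row apart with r = 0.046. Calls were uneven by row: in row 27, 29 of 266 named genes fell (10.9%), and in rows 24 and 29 it was 8.80% and 8.11%, against 3.61% overall. Rises were uneven too, against 2.55% overall. In row 38, 11 of 152 named genes rose (7.24%), in row 5, 13 of 199 (6.53%), in row 30, 2 of 31 (6.45%), and in row 16, 10 of 198 (5.05%). All these rows were singled out after their values were seen.

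Of the largest falls ZK1320.3, C17C3.2 and C18E9.5 were printed at consecutive places of row 27 in 1 block, with means of -2.38, -2.32 and -2.61, while the 2 spots before them averaged -0.05 and -0.27. F49F1.7, F37D6.7, T04C9.1 and Y75B12B.3, also among the 20 largest falls, were in row 27 of other blocks. F49F1.7, F37D6.7 and C18E9.5 all held position 18 of that row. Of the 20 largest rises, C07E3.3, C36B7.5, B0513.7 and C17B7.5 were in row 5 of their blocks, and F44E5.5, F44E5.4 and H02F09.3 in row 16. How much of these falls and rises the print position gave was not tested. The spots next to Y106G6H.9 averaged 0.10 and -0.12, those next to erp-44.3 0.08 and -0.18, and those next to F44E5.5 -0.12 and 0.38. The spots next to F44E5.4 were higher, at 0.90 and 1.53. When each array was centred within every print row of every block, 564 named genes passed. All of the 20 largest rises kept their calls, and F44E5.4 averaged 3.31 (limma, adjusted p = 0.00482). Of the 20 largest falls 16 kept their calls, C17C3.2 and C18E9.5 among them, and ZK1320.3, K10C9.4, T04C9.1 and B0272.4 lost theirs. Of all 78 called genes checked 12 lost the call under this setting, the others being dlgr-1, pals-38, snrp-40.2, mcm-3AP, nssp-55, ttbk-3, slc-25A18.2 and lido-10. Centring within print blocks ended 6 of the 78 calls and centring within places of the layout 8.

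**Figure D5:**
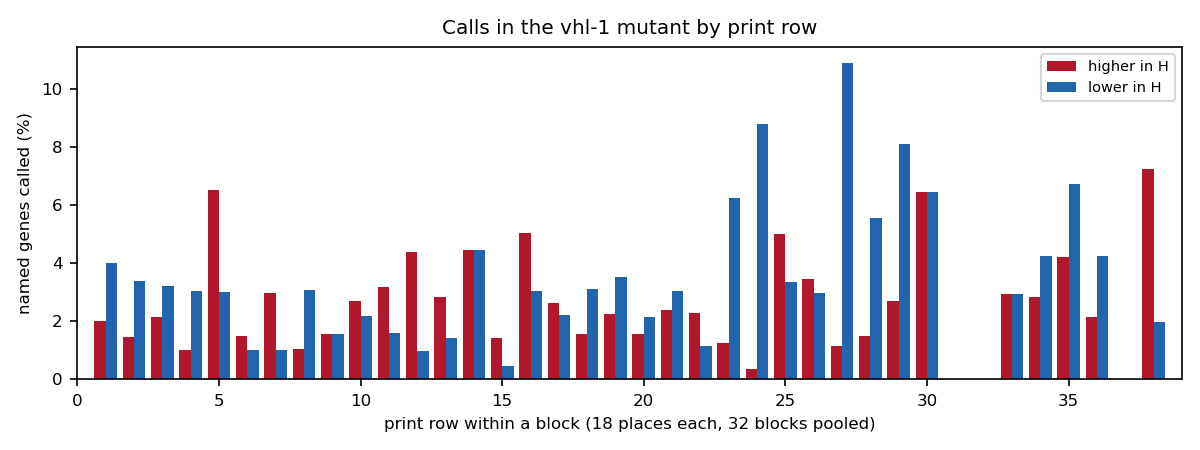
Share of tested named genes that rose or fell in the vhl-1 mutant by print row within a block, in percent, with the 32 blocks pooled. The share that fell peaks at row 27 (10.9%) and is raised at rows 24 and 29, beside 3.61% over all rows. The share that rose peaks at row 38 (7.24%) and is raised at row 5 (6.53%), beside 2.55% over all rows.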

How the data were processed

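Total RNA of C. elegans was measured on 9 spotted 2-colour arrays, per the labels. The deposited values, 1 log ratio for each spot of an array, were taken as log2; for the authors' image analysis, background correction and normalisation no account is given in the labels, and spot intensities were not used. Values marked null and empty cells (3303 and 1156) were taken as missing. Gene names came from the platform annotation, updated through a RefSeq table of WBcel235: of 21888 spots 7774 had 1 name, 0 several and 14114 none, and 7741 matched. The table gives no gene descriptions, so lists were matched by symbol.

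The sign was turned to H over N, arrays were centred on their medians, spots of a gene were averaged, and features with at least 2 values per genotype were kept. limma 3.58.1 (R 4.3.3, statmod 1.5.0) fitted 1 mean per genotype to all 9 arrays (6 residual and 6.95 prior degrees of freedom), with Benjamini and Hochberg adjustment over 20858 features and a threshold of 0.05. The median SE was 0.266 for a response; the number of arrays limits the precision. Named were, among genes past the test with 1 sign and 3 values, the 20 highest, the 20 lowest and the 10 lowest p of each direction, the 5 lowest p of each direction in each difference where fewer passed, heat shock and HIF pathway genes, and up to 4 genes per list. Members of families, neighbouring genes and print rows given beyond this were chosen after their values were seen. Members and lists were chosen with earlier results of these data known. In 3 simulations of this design 46.5% of responses of 1 log2 unit and 98.5% of those of 2 were recovered, and 90 of 60174 unchanged features were called. Alternatives covered scaling, print-based centring, filters, the variance model, the threshold and leaving out each array.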

Additional observations from a re-analysis of the deposited data

Results flagged for a closer look

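The unnamed spot probe_21826 was the only feature at which the responses of the vhl-1 mutant and wild type differed past the test, which is why it is shown. It gave -2.54, -1.50 and -2.17 in the vhl-1 mutant (mean -2.07), -1.45, -1.34 and -1.55 in the hif-1 mutant (mean -1.45), and 0.98, 1.02 and 0.41 in wild type (mean 0.80). All values of both mutants lay below 0 and all wild type values above it. The vhl-1 mutant minus wild type difference was -2.87 (SE 0.34; limma, adjusted p = 0.0284). The call was lost when arrays were scaled to one spread (adjusted p = 0.247), with centring within print blocks (0.0633), with centring within print rows of blocks (0.13), with only the arrays compared (0.124) and without any 1 of 7 arrays, with adjusted p values from 0.0563 to 0.304. It was kept without vhl-1 mutant array 2 (0.0318) and without hif-1 mutant array 2 (0.0381). The spot number of probe_21826 is close to that of B0280.7, 21819, in row 4 of print block 32. How much of the difference the print position gave was not tested.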

How the results depend on the processing

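The count of called features in the vhl-1 mutant response, 1915, was 302 (128 higher, 174 lower) when named genes alone were tested, 1189 (612 higher, 577 lower) without the print places that hold no named spot, 516 (104 higher, 412 lower) at an adjusted p under 0.01, and 412 to 2612 when single arrays were left out. The share of calls that fell was 56.1%, but 48.5% without those places, 79.8% at 0.01, 88.4% without vhl-1 mutant array 2 and 87.2% without array 3. The count of called named genes, 442, was 281 with arrays scaled to one spread, 705 with only the vhl-1 mutant arrays in the fit, 82 at 0.01, and 58 to 677 when single arrays were left out; the highest count came without hif-1 mutant array 2. The list members called, 30, were 19 with scaled arrays, 6 at 0.01, and 5 to 43 when single arrays were left out. The 1 feature that differed from wild type became 0 with scaled arrays, print block centring, print row centring (an alternative added after seeing the data), only the arrays compared, the replicate block, named genes alone and the 0.01 threshold, and ranged from 0 to 1 when single arrays were left out. Against the hif-1 mutant 0 features became 4, all lower, without hif-1 mutant array 3. The mean of hsp-16.20 ran from -0.12, without vhl-1 mutant array 1 (limma, adjusted p = 0.905), to 0.39 when single arrays were left out. Same-numbered arrays of different genotypes did not deviate together (r from -0.199 to 0.269 over 9 pairs), so the numbers were not taken as pairs; with the replicate block 1826 features (752 higher, 1074 lower) and 411 named genes passed, and 0 differed from wild type. For single genes, 1708 values under the alternatives kept direction and side of the threshold, 236 lost the call, 15 gained it and 1 turned. Of the 40 largest changes 16 kept the call in every fit that left out 1 array and in which they could be tested, 10 of them in all 9 fits and 6 in 5 or 7. B0272.4 lost its call in 6 of these fits and 8 other settings. Of all 78 called genes checked, 24 kept the call in every fit that left out 1 array and could test them. Signal over background is unknown, and the cause of these shifts was not tested.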
